A study of Mus musculus with 10 samples.

Results

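Oxidative phosphorylation is carried out by protein complexes of the inner mitochondrial membrane whose subunits come from 2 genomes, and their mRNAs were followed in murine keratinocytes and CD8+ T cells that had been cultured apart or together. The genes were taken by name from the protein-coding genes of the deposited tables: the mt- genes for Nd, Co, Cytb and Atp subunits, and nuclear genes whose names begin with Nduf followed by A, B, C, S or V and a number, or with Uqcr, Cox4 to Cox8 or Atp5. The names gave 92 of 25814 genes, of which 13 are mitochondrial and 79 nuclear. Counted by complex, the mitochondrial genes comprise 7 for complex I, 1 for complex III, 3 for complex IV and 2 for complex V, and the nuclear genes 35 for complex I, 8 for complex III, 20 for complex IV and 16 for complex V. Ndufa4 and Ndufa4l2 were counted with complex IV in spite of their names, and complex II has no gene among the 92.

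Complexes I, III and IV pass electrons to oxygen and pump protons, and complex V, the ATP synthase, uses the proton gradient to make ATP. The mitochondrial genome encodes the core subunits that lie deep in the membrane, and is transcribed as long precursors that are cut at the tRNAs, whereas nuclear genes encode the remaining subunits, which are imported and assembled with them. Activated T cells are known to make much of their ATP by glycolysis next to respiration.

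RNA was sequenced from 10 libraries in 5 groups of 2. Keratinocytes were cultured alone in SFM keratinocyte medium (keratinocytes alone 1 and 2) or together with pre-activated CD8+ T cells (co-cultured keratinocytes 1 and 2). As sources of keratinocytes the study names tails of adult mice and newborn mice, without stating which were sequenced. The study's methods give a mix of SFM and X-VIVO for all co-cultures. They do not state that keratinocytes alone received this mix, so that T cells and medium cannot be told apart in the keratinocytes. Splenic CD8+ T cells enriched with CD8 microbeads received αCD3/CD28 Abs over 1 d (activated T cells 1 and 2), by the study's methods in X-VIVO medium. They were then kept for 1 d more in keratinocyte medium, which the study's methods give as a mix of SFM and X-VIVO (T cells in mixed medium a and b), or together with keratinocytes (co-cultured T cells a and b). All mice were C57/B6, and the activation by αCD3/CD28 Abs was shared by all 3 T-cell groups. The labels give 1 d of co-culture for the T cells, whereas the deposited design text gives hours in place of days. Letters in place of numbers only name a library, since these labels carry no replicate number, and nothing states that the libraries of a group came from separate mice, so that p-values measure the spread between these libraries, which may be technical.

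Between 12864931 and 18019609 reads were counted on exons per library. Summed over 9 keratinocyte markers, the level was 13149.7 to 18701 RPKM (reads scaled to exon length and to the mapped reads of a library) in the 4 keratinocyte libraries, 6.53 to 9.19 RPKM in the T cells that had met no keratinocytes, and 101 and 55.2 RPKM in co-cultured T cells a and b. Of 8 T-cell markers Trac was listed at 0 in all libraries. The sum of the other 7 was 1181 to 2704 RPKM in the T cells, but it also reached 390.1 RPKM in keratinocytes alone 2 and 694 RPKM in co-cultured keratinocytes 2, against 98.2 and 127 RPKM in their partners, while Cd8a was at 0.118 to 1.16 RPKM in these 4 and at 110 to 334 RPKM in the T cells. Within every group the library named second also held relatively more reads on short genes. Its median log2 ratio of RPKM to the first library was 0.21 to 0.36 over the genes with under 1 kb of exon and -0.44 to -0.21 over those with 4 kb or more. The nuclear genes studied here are short, with a median exon length of 920 bases against 2827 over all genes averaging at least 5 RPKM, and their own median log2 ratio was 0.18 to 0.36.

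The mitochondrial mRNAs took a larger share of the exon reads in T cells after the further day of culture than before it. The 13 genes held 2.71% and 5.01% of the exon reads in activated T cells 1 and 2, 6.08% and 8.0% in T cells in mixed medium a and b, and 6.81% and 13.1% in co-cultured T cells a and b. All 4 later libraries thus lay above both activated ones, and co-cultured T cells b stood apart from the rest. The time since activation and the medium changed together between the activated and the later libraries and cannot be told apart. The group means were 3.86% ± 1.63 (SD, n = 2), 7.04% ± 1.35 (SD, n = 2) and 9.96% ± 4.46 (SD, n = 2).

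In keratinocytes the share was 2.33% and 3.07% alone and 2.28% and 3.71% after co-culture, which overlap. The Wilson 95% confidence interval of each of the 10 shares spans at most ± 0.0184 percentage points, for counting error only, and is thus small against the spread between libraries. With 2 libraries against 2, a two-sided exact permutation test of such a share cannot give a p under 0.333, so no test is given. Since these are bulk samples, more mitochondrial mRNA in a cell and less of all other mRNA cannot be told apart.

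The share of the 79 nuclear genes varied less. It was 1.4% ± 0.145 (SD, n = 2) in activated T cells, 1.49% ± 0.26 (SD, n = 2) in mixed medium and 1.48% ± 0.16 (SD, n = 2) after co-culture, and 1.02% ± 0.132 (SD, n = 2) in keratinocytes alone and 1.35% ± 0.286 (SD, n = 2) in co-cultured keratinocytes. Summed RPKM of the mitochondrial genes over that of the nuclear genes was 3.14, 3.31, 2.7, 3.59, 2.8 and 4.46 in the keratinocytes and activated T cells, and 5.95, 6.22, 6.34 and 9.19 in the 4 later T-cell libraries. The second group of values does not overlap the first. In every group the library named second had the higher share of both the mitochondrial and the nuclear genes, as it had the higher level of short genes.

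**Figure D1:**
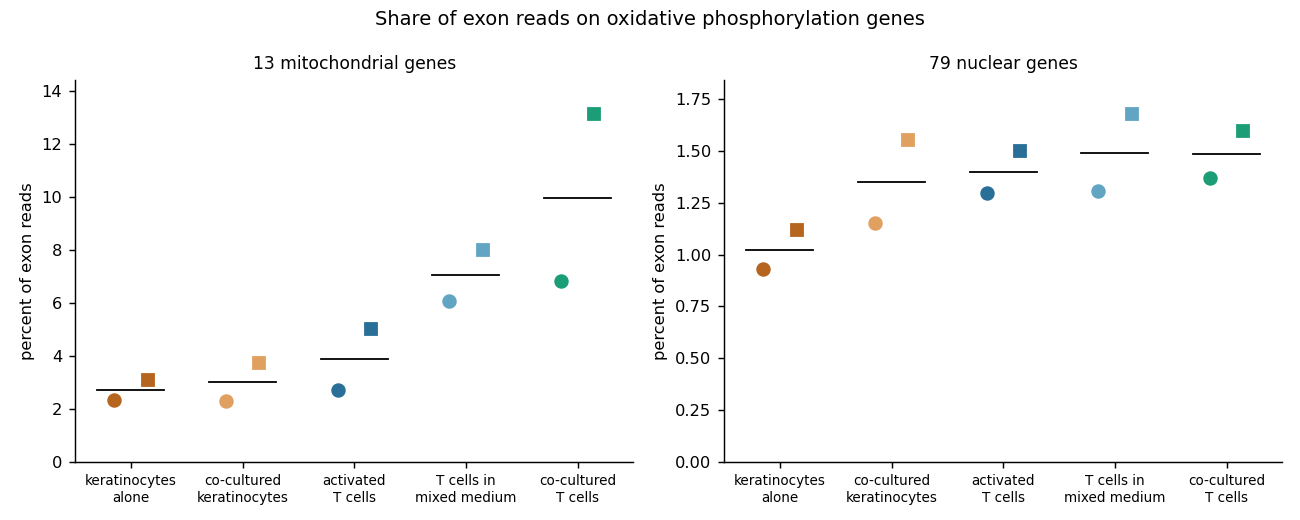
Percent of exon reads on the 13 mitochondrial (left) and 79 nuclear (right) oxidative phosphorylation genes in each of the 10 libraries; circles are the libraries named 1 or a, squares those named 2 or b, and lines the group means. The mitochondrial share reached 13.1% in co-cultured T cells b, whereas the nuclear share stayed between 0.93% and 1.68%.

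Resolved by complex, the mitochondrial subunits of complex IV, which reduces oxygen, and of complex V showed the larger differences. The 3 mitochondrial complex IV mRNAs summed to 13287, 25610.5, 32142, 46719, 37668 and 77002 RPKM in activated T cells 1 and 2, mixed medium a and b and co-culture a and b, in this order. The 2 mitochondrial complex V mRNAs summed to 7392, 14203, 20874, 23905, 22527 and 26328 RPKM. In both complexes the 4 later libraries lay above both activated ones. The 7 mitochondrial complex I mRNAs summed to 8838, 17343, 11262, 16337, 12608 and 21004 RPKM, and here activated T cells 2 lay above 3 of the 4 later libraries. In the keratinocytes, the complex I sum was 5309, 6670.0, 4252 and 6609 RPKM in alone 1 and 2 and co-culture 1 and 2, and that of mt-Cytb, the mitochondrial subunit of complex III, 869.6, 845, 647 and 708 RPKM. Its level in the T cells, 1669, 1985, 3049.8, 3337, 2809 and 3724 RPKM, was above that of all keratinocyte libraries.

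After co-culture, 4 of the 13 mitochondrial mRNAs rose in T cells compared with activated T cells, and 0 fell (edgeR's quasi-likelihood test over the 6 T-cell libraries, adjusted p under 0.05 over all 11863 genes tested). Of all genes tested, 4.59% were called higher and 5.72% lower. All 13 had a positive fold change, as had 49.5% of all genes tested, with a median log2 fold change of 1.26 and a range of 0.10 to 2.61, against a median of -0.012 over all genes tested. In RPKM, 10 of the 13 lay higher in both co-cultured libraries than in both activated ones, as did 23.6% of all genes tested.

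mt-Co1 encodes the catalytic core subunit of complex IV (MT, 5328 to 6872). It stood at 3583 and 5424 RPKM in activated T cells 1 and 2, 10326 and 11903 in mixed medium a and b, and 12278 and 34449.7 in co-culture a and b, so that the groups do not overlap and co-cultured T cells b was far above the others. Its log2 fold change in co-culture against activated cells was 2.61 ± 0.57 (SE), adjusted p = 0.0279. The small complex I subunit mt-Nd4l (MT, 9877 to 10173) rose as well. Its levels were 494 and 512, 805 and 678, and 1009.8 and 1398 RPKM in the same 3 groups, which also keep apart, with a log2 fold change of 1.47 ± 0.33 (SE), adjusted p = 0.0291. mt-Nd5, a proton-pumping subunit of complex I (MT, 11742 to 13565), was at 332 and 334 RPKM in the activated cells, 787 and 462 in mixed medium and 853 and 674 after co-culture. Its log2 fold change was 1.38 ± 0.32 (SE), adjusted p = 0.0336. For mt-Atp8, a subunit of the membrane part of ATP synthase (MT, 7766 to 7969), the levels were 2846 and 5022, 8421 and 9616, and 9569.6 and 10506 RPKM, and the log2 fold change was 1.54 ± 0.38 (SE), adjusted p = 0.0416. For both, all 4 later libraries were above both activated ones. The same 4 genes were called on uniquely mapped reads, which make up 77% of the reads on mt-Co1 and 100% of those on each of the other 3.

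These calls rest on single libraries. The calls were lost without activated T cells 1 or without co-cultured T cells b, where fewer of all genes were called as well. The median log2 fold change was then 0.90 with 12 positive and 0.80 with 10 positive, respectively. Without activated T cells 2 and without co-cultured T cells a it was 1.44 and 1.48, with 13 positive in each. DESeq2 called 8 of the 13 and edgeR without a filter on low counts 9, all of them higher, but these settings also called 20% and 15.9% of all genes, in either direction, against 10.3%. With the gene length trend removed, chosen after the data had been seen, 6 were called higher, mt-Co1 and mt-Nd5 among them but not mt-Nd4l and mt-Atp8. There 14.7% of all genes were called in either direction, and the median log2 fold change of the 13 was smaller, at 0.84 with 12 positive. The levels of T-cell markers moved with the comparison too, from 1181 and 1499.9 RPKM in the activated cells to 2582 and 1863 RPKM in the co-cultured ones. Cd4 was at 16.8 and 102 RPKM in activated T cells 1 and 2, 67.2 and 75.9 in mixed medium a and b and 64.6 and 62.0 after co-culture a and b. The sum of 4 B-cell markers was 29.4 and 31.0 RPKM in activated T cells, 44.2 and 92.3 in mixed medium and 16.6 and 27.2 after co-culture. The part of these markers in the results on T cells was not tested.

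In mixed medium without keratinocytes, 11 of the 13 mitochondrial mRNAs had lower fold changes against activated T cells than after co-culture, the others being mt-Co3 and mt-Nd3. The shares of reads of these groups overlap, however, and none of the genes was called between them. None of the 13 was called against activated T cells in either direction, where 2.32% of all genes tested were called higher and 4.22% lower by edgeR. At an unadjusted p under 0.05 there were 5 higher and 0 lower, at 11% higher and 14% lower of all genes. DESeq2 called 4 higher, with 16.4% of all genes called in either direction. Of the 13, 11 had a positive fold change, as had 48.5% of all genes tested, and the median log2 fold change was 0.70 against -0.015 over all genes. With the gene length trend removed, the median of the 13 was 0.46, with 9 positive. In both libraries of mixed medium 9 of the 13 were above both activated ones in RPKM, against 22.1% of all genes tested. The smallest adjusted p belonged to mt-Atp8, at 1.33 ± 0.38 (SE), adjusted p = 0.0757. mt-Co1 had a log2 fold change of 1.44 ± 0.55 (SE), adjusted p = 0.151, and mt-Cytb of 0.95 ± 0.34 (SE), adjusted p = 0.126.

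mt-Nd1, mt-Nd2 and mt-Nd3, all complex I subunits, had the smallest fold changes of the 13 after co-culture. mt-Nd1 and mt-Nd2 had log2 fold changes of -0.076 and -0.064 in mixed medium and 0.57 and 0.46 after co-culture, with standard errors of 0.53 and 0.43 in the latter. The levels of mt-Nd1 were 3298 and 5931 RPKM in activated cells and 3252 and 4669 in mixed medium, which overlap. mt-Nd3 differed widely within groups, with 1927 and 6672 RPKM in activated T cells 1 and 2, 2396 and 7046 in mixed medium a and b, and 2859 and 5212 in co-culture a and b. Its log2 fold change after co-culture was 0.10 ± 0.72 (SE), adjusted p = 0.948, and its sign turned with the scaling, to -0.078 with library size in place of TMM.

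**Figure D2:**
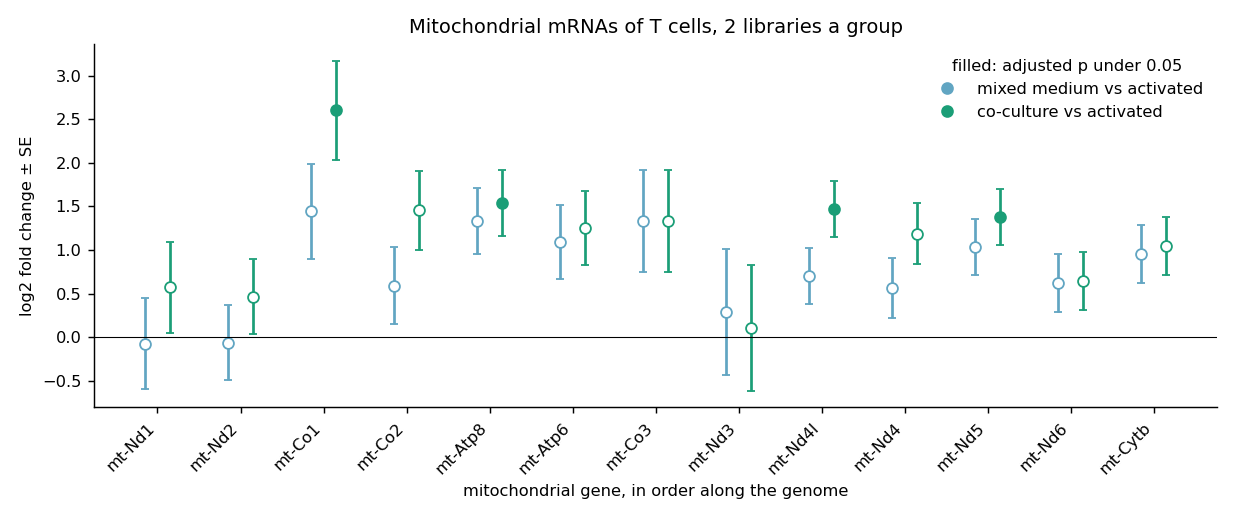
Log2 fold changes of the 13 mitochondrial mRNAs in T cells in mixed medium (blue) and after co-culture (green) against activated T cells, in genome order; bars are standard errors of the fit, filled points have an adjusted p under 0.05, and both comparisons share the same 2 activated libraries. The filled points are mt-Co1, mt-Atp8, mt-Nd4l and mt-Nd5 after co-culture.

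Adjacent genes of this genome share bases, which bears on the values of the shortest ones. The last 43 bases of mt-Atp8, which make up 21.1% of its length, are also the first bases of mt-Atp6 (MT, 7927 to 7969, GRCm38, forward strand). The stretch is shown with 20 bases on either side, from the GENCODE vM21 transcripts and with the shared bases in capitals, since reads there fit both genes.
mt-Atp8/mt-Atp6: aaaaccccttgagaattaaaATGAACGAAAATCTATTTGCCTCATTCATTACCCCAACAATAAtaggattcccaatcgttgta
mt-Nd4l/mt-Nd4: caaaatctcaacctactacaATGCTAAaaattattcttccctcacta
The second pair shares 7 bases (MT, 10167 to 10173). RPKM of mt-Atp8 over mt-Atp6 was 0.547 to 0.823 over the 10 libraries. mt-Nd6, the only one of the 13 on the light strand, overlaps mt-Nd5 at the 3′ ends of both, and since it is not stated that strand was used in counting, reads from both strands cannot be told apart there.

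The make-up of the mitochondrial mRNA also differed between libraries of 1 group. mt-Nd3 and mt-Nd4 both encode complex I subunits and lie close together on the same strand, yet their RPKM ratio was 0.786 and 1.48 in keratinocytes alone 1 and 2, 1.57 and 7.27 after co-culture, 2.02 and 6.13 in activated T cells, 1.49 and 6.15 in mixed medium a and b, and 1.73 and 2.21 in co-cultured T cells a and b. In each group the library named second, with relatively more reads on short genes, had the higher ratio; mt-Nd3 has 348 bases and mt-Nd4 1378. mt-Co3 made up 28.6% of the summed mitochondrial RPKM in co-cultured keratinocytes 2 and 28.8% in mixed medium b, but 11.7% in keratinocytes alone 1. In co-cultured T cells b the leading gene was mt-Co1, with 26.9%. In the other 3 later T-cell libraries mt-Co1 made up 13.2% to 16.2%.

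**Figure D3:**
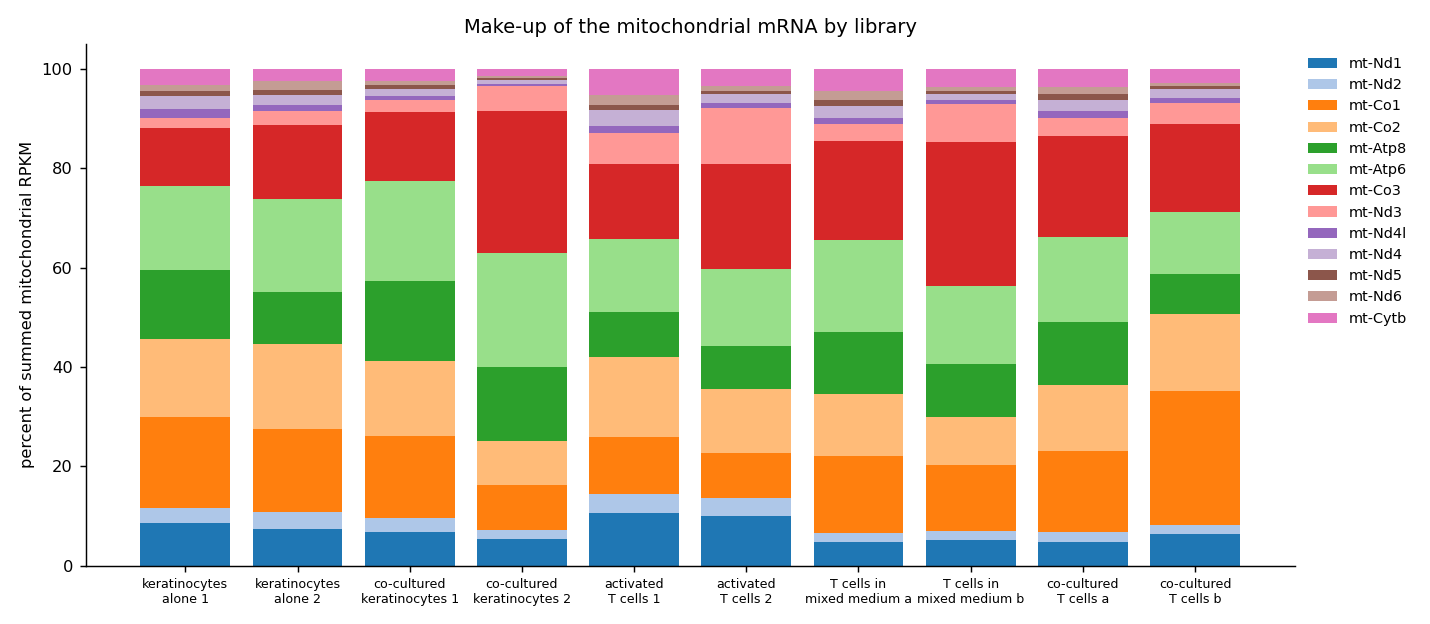
Percent of the summed RPKM of the 13 mitochondrial genes that each gene held, by library, stacked in genome order. mt-Co3 and mt-Nd3 were broad in co-cultured keratinocytes 2, activated T cells 2 and mixed medium b, and mt-Co1 held 26.9% in co-cultured T cells b.

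Most nuclear subunits had high levels in both cell types. Averaged over the 10 libraries, the leading members were Atp5b, the catalytic β subunit of ATP synthase (587 to 1085 RPKM), and Atp5e (219 to 672), of its central stalk. For complex IV these were Cox8a (342 to 959) and Cox4i1 (277 to 738), for complex III Uqcrh (153 to 667) and Uqcr10 (149.8 to 278), and for complex I Ndufa7 (102 to 264) and Ndufb9 (113 to 205). Of the reads on Cox4i1 41.8% and of those on Ndufb9 60% were unique, so that part of their level may belong to near-identical copies. For Cox7c and Ndufb4 the unique percentage was 6.58 and 7.61, and their levels are uncertain.

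The tissue-restricted forms of complex IV subunits were hardly detected. Cox7b2, Cox8b and Cox8c had 0 reads in all 10 libraries, which allows up to 0.391, 0.589 and 0.463 RPKM at 3 reads in the shallowest library. Cox4i2 had 4 reads in total, Cox6a2 30, Cox7a1 71 and Cox6b2 179. Their common partners Cox4i1, Cox6a1, Cox6b1, Cox7b and Cox8a made up 98.976% to 100% of the RPKM of each such pair or triplet over the 10 libraries. A filter on low counts left 73 of the 79 nuclear genes in the fits of keratinocytes and of T cells and 74 in the fit of all 10 libraries.

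In T cells, the nuclear genes lay on both sides of their levels before the further day of culture. Against activated T cells, 1 of 73 rose after co-culture and 0 fell, at the above 4.59% and 5.72% over all genes. Their median log2 fold change was 0.20, with a range of -1.32 to 3.84, the upper end being Cox7a1 with at most 2.38 RPKM. In RPKM, 24 were higher in both co-cultured libraries than in both activated ones and 22 lower, against 23.6% and 33.9% of all genes tested. In mixed medium none of the 73 was called by edgeR, and 6 were higher and 4 lower at an unadjusted p under 0.05 (all genes 11% higher and 14% lower). DESeq2 called 2 higher and 1 lower, at 16.4% of all genes in either direction, and the edgeR median was 0.14. In RPKM, 20 were higher and 19 lower in both libraries of mixed medium than in both activated ones, against 22.1% and 32.5% of all genes tested. For complex IV, 13 of 14 tested had a positive fold change after co-culture and 13 of 14 in mixed medium, with medians of 0.49 and 0.42. For complex III, 3 of 8 and 3 of 8 did, with medians of -0.32 and -0.23. Left-out libraries moved the median over the 73 genes, to -0.0059 without co-cultured T cells b and 0.42 without activated T cells 2 after co-culture, and to -0.11 without mixed medium b and 0.44 without mixed medium a. Complexes I and V had medians of 0.15 and 0.12 after co-culture. Both comparisons share the 2 activated libraries. With library size in place of TMM, the median after co-culture was -0.17 over all genes, 0.023 over the nuclear and 1.09 over the mitochondrial members. Of the latter 3 were called higher, and 1 nuclear gene, Atp5g1, was called lower, with 9.76% of all genes called in either direction.

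The gene that passed the test was Ndufv3 (chromosome 17, 31520115 to 31531326), an accessory subunit of the part of complex I that takes up NADH. Its levels were 24.9 and 24.4 RPKM in activated T cells, 51.3 and 40.8 in mixed medium and 53.2 and 40.8 after co-culture, and 26, 29.2, 23.5 and 23.5 in the 4 keratinocyte libraries. All 4 later T-cell libraries lay above all others. Its log2 fold change after co-culture was 1.12 ± 0.29 (SE), adjusted p = 0.0496, and in mixed medium 1.04 ± 0.29 (SE), adjusted p = 0.0737. The call was lost when any 1 of the 4 libraries compared was left out, while the fold change kept to 1.02 to 1.21.

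The 3 genes for subunit c of ATP synthase had fold changes of both signs. Atp5g1, Atp5g2 and Atp5g3 differ in their import sequences but are known to yield the same mature protein, the ring that turns in the membrane. Atp5g1 (chromosome 11, 96068852 to 96075670) was at 45.5 and 39.6 RPKM in activated T cells, 13.2 and 19.9 in mixed medium and 13.2 and 16.2 after co-culture. Atp5g2 (chromosome 15, 102662864 to 102672352) was at 155 and 182, 253 and 318, and 280.2 and 444 RPKM in these groups. The former was lower and the latter higher in all 4 later libraries. Atp5g3 (chromosome 2, 73908447 to 73911326), the most abundant, was at 626 and 647, 355 and 482, and 356 and 446 RPKM.

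The log2 fold changes after co-culture were -1.32 ± 0.36 (SE), adjusted p = 0.0532 for Atp5g1, 1.32 ± 0.38 (SE), adjusted p = 0.0636 for Atp5g2 and -0.46 ± 0.33 (SE), adjusted p = 0.412 for Atp5g3, none of which passed. DESeq2 called Atp5g1 lower and Atp5g2 higher (adjusted p = 0.0128 and 0.0107), and limma on log2(RPKM + 1) called Atp5g1 lower. In mixed medium the values were -1.19 ± 0.36 (SE), adjusted p = 0.0855 for Atp5g1 and 0.91 ± 0.38 (SE), adjusted p = 0.18 for Atp5g2. The share of Atp5g2 in the RPKM of the 3 genes was 18.8 and 21% in activated T cells, 40.7 and 38.8% in mixed medium, and 43.2 and 49% after co-culture, and 22.9, 26.9, 21.7 and 30.2% in the keratinocyte libraries. Their sum was 826, 869, 621, 820.3, 649 and 906 RPKM in activated T cells 1 and 2, mixed medium a and b and co-culture a and b, so that the activated cells lay above mixed medium and within the range of co-culture.

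In the pair Cox7a2 and Cox7a2l, only the level of the latter lay apart from that of activated T cells in all 4 later libraries. Cox7a2 is a subunit of complex IV, and the related Cox7a2l (chromosome 17, 83501919 to 83514333) was counted with that complex. Cox7a2l was at 123 and 246 RPKM in activated T cells, 449 and 460.1 in mixed medium and 409.9 and 481 after co-culture, without overlap. Cox7a2 was at 173 and 204, 147 and 205, and 159.8 and 242 RPKM, with overlap. The log2 fold change of Cox7a2l was 1.46 ± 0.41 (SE), adjusted p = 0.0587 after co-culture and 1.43 ± 0.41 (SE), adjusted p = 0.0757 in mixed medium. It passed in both comparisons with DESeq2 (adjusted p = 0.00695 and 0.0103).

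Other nuclear genes with wide differences did not pass the test. Ndufa5 and Ndufa12, accessory subunits of complex I, had log2 fold changes of -1.22 ± 0.47 (SE), adjusted p = 0.158 and -0.99 ± 0.38 (SE), adjusted p = 0.156 in mixed medium. Ndufa5 was at 64.2 and 71.2 RPKM in activated T cells and 17.5 and 34.2 in mixed medium, and Ndufa12 at 116 and 137 and 48.3 and 65.9, the groups lying apart for both. Only 47.1% of the reads on Ndufa12 were unique. On the upper side, Ndufa6, another accessory subunit of complex I, was at 81.3 and 121 RPKM in activated T cells and 143 and 221 in mixed medium, with a log2 fold change of 1.00 ± 0.41 (SE), adjusted p = 0.181. The trend of each library with gene length was also removed, an alternative chosen after the data had been seen. Then 2 nuclear genes were called higher and 6 lower after co-culture, with 14.7% of all genes called in either direction. In mixed medium 1 was called higher and 3 lower, with 10.6% of all genes called. Ndufa5 and Ndufa12 were among those called in both comparisons.

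**Figure D4:**
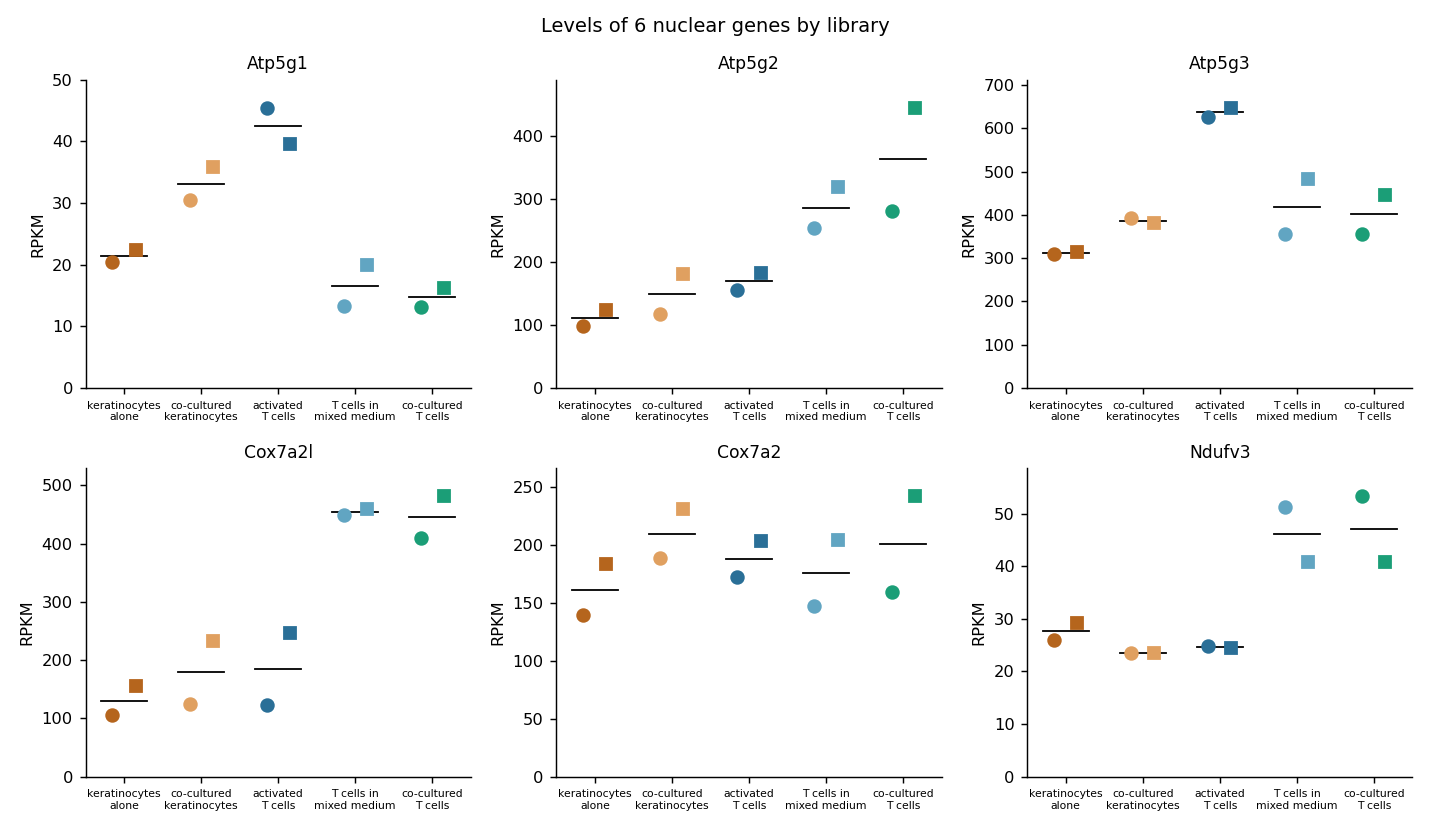
RPKM of 6 nuclear genes in each of the 10 libraries (circles, libraries named 1 or a; squares, 2 or b; lines, group means). Atp5g1 and Atp5g3 were higher and Atp5g2, Cox7a2l and Ndufv3 lower in activated T cells than in the 4 later T-cell libraries, whereas Cox7a2 overlapped.

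Promoters of the nuclear genes were searched for motifs of NRF1 and of ETS factors such as GABP, which are known to act on respiratory genes. RefSeq promoters (GRCm38.p6, 250 bases before and 50 after the start) were found for 65 of the 79. The palindromic NRF1 motif, taken as GCGCA followed by any base and GCGC on either strand, was in 15 of them (23.1%), against 5.19% of 27025 genes. The ETS core CCGGAAG was in 14 (21.5%), against 9.93%. Both were held by 3 of the 65, and the letters of the motifs can share at most 1 base. A match is a description of these letters and not a bound site. The 27025 genes were not restricted to protein-coding or expressed genes, whereas most of the nuclear members had high levels. Shown are 30 bases around the NRF1 motif, in capitals, of 4 genes whose match lies before the start, because Atp5g2 and Ndufa5 lay on opposite sides of activated T cells and both hold it, as do Atp5k and Cox6a1, with log2 fold changes of 0.036 and 0.37 after co-culture.
Atp5g2: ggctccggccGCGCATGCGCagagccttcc
Ndufa5: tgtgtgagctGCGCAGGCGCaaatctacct
Atp5k: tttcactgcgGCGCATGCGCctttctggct
Cox6a1: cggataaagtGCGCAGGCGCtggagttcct
The windows are Atp5g2 (chr15:102671070-102671099, minus strand, 42 bases before the start), Ndufa5 (chr6:24527697-24527726, minus strand, 26 bases before the start), Atp5k (chr5:108434430-108434459, minus strand, 50 bases before the start), and Cox6a1 (chr5:115349056-115349085, minus strand, 117 bases before the start).

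The presence of keratinocytes, tested as co-cultured T cells against T cells in mixed medium, gave no call among the members. Of all 11863 genes tested by edgeR, 0.261% were called higher and 0% lower. At an unadjusted p under 0.05, 1 of the 13 mitochondrial and 0 of the 73 nuclear genes were higher and 0 lower, against 2.7% higher and 0.75% lower of all genes tested. DESeq2 called 0 of the members and 0.733% of all genes. Fold changes were positive for 11 of 13 mitochondrial and 39 of 73 nuclear genes, and for 48.5% of all genes tested. The mitochondrial median was 0.35 and the nuclear median 0.008 on the log2 scale. Without co-cultured T cells b they were 0.057, with 8 positive, and -0.19, with 10 positive, and without mixed medium b 0.65, with 12 positive, and 0.30, with 67 positive. Without mixed medium a and without co-cultured T cells a the nuclear medians were -0.25 and 0.22. In both co-cultured libraries 4 of the 13 were above both of mixed medium in RPKM, against 14.2% of all genes tested. Among nuclear genes of at least 5 RPKM on average, the widest differences were log2 fold changes of -0.48 ± 0.55 (SE) for Ndufa10, -0.38 ± 0.32 (SE) for Ndufb10 and -0.37 ± 0.37 (SE) for Ndufa2 on the lower side. On the upper side they were 0.47 ± 0.35 (SE) for Cox8a, 0.40 ± 0.37 (SE) for Atp5g2 and 0.35 ± 0.33 (SE) for Ndufs3. Ndufa10 itself was at 63.8 and 31.1 RPKM in mixed medium a and b and 51.6 and 15.5 after co-culture a and b, and the groups overlap.

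In keratinocytes after co-culture with T cells, no gene at all was called by edgeR (0% of 12515 genes higher and 0% lower). The study reports a strong rise of Cxcl9 and Cxcl10 RNA in such keratinocytes, so that a missing call says little on any gene here. DESeq2 called 0 of the members and 1.49% of all genes, in either direction. At an unadjusted p under 0.05, 0 of 73 nuclear genes differed and 1 of 13 mitochondrial genes, mt-Nd4l, was lower, against 3.08% higher and 4.12% lower of all genes tested. Of the nuclear genes 66 of 73 had a positive fold change, as had 51.3% of all genes tested, with a median log2 fold change of 0.39 against 0.023 over all genes. In RPKM 34 lay above, and 3 below, both keratinocytes alone in both co-cultured libraries, against 19.8% and 24.3% of all genes tested. The median was 0.11 with 49 of 74 positive without co-cultured keratinocytes 2, 0.20 with 54 of 74 without keratinocytes alone 1, 0.63 without keratinocytes alone 2 and 0.60 without co-cultured keratinocytes 1. With the gene length trend removed, 44 of the 73 were positive and the nuclear median was 0.06.

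In these cells large positive log2 fold changes at 5 or more RPKM on average belonged to the complex I subunits Ndufa5 (0.93 ± 0.42 (SE)) and Ndufb5 (0.86 ± 0.46 (SE)), neither of which passed the test. On the lower side were Ndufa4l2 (-0.86 ± 1.34 (SE)), Ndufv3 (-0.16 ± 0.28 (SE)) and Ndufa4 (-0.12 ± 0.43 (SE)). Of the mitochondrial genes, 7 of 13 were lower in both co-cultured libraries and 1 higher in RPKM, against 24.3% and 19.8% of all genes tested. mt-Nd4l, for one, was at 508 and 419 RPKM alone and 239 and 189.8 after co-culture, mt-Nd4 at 675 and 678 and 399.9 and 331, and mt-Nd5 at 273 and 355 and 182 and 161, without overlap. mt-Atp8 lay on the other side, at 3611 and 3556 and 4363 and 6956 RPKM. The T-cell marker sum of these libraries, given above, was higher in number 2 than in number 1 of both groups, and its part in these values was not tested.

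**Figure D5:**
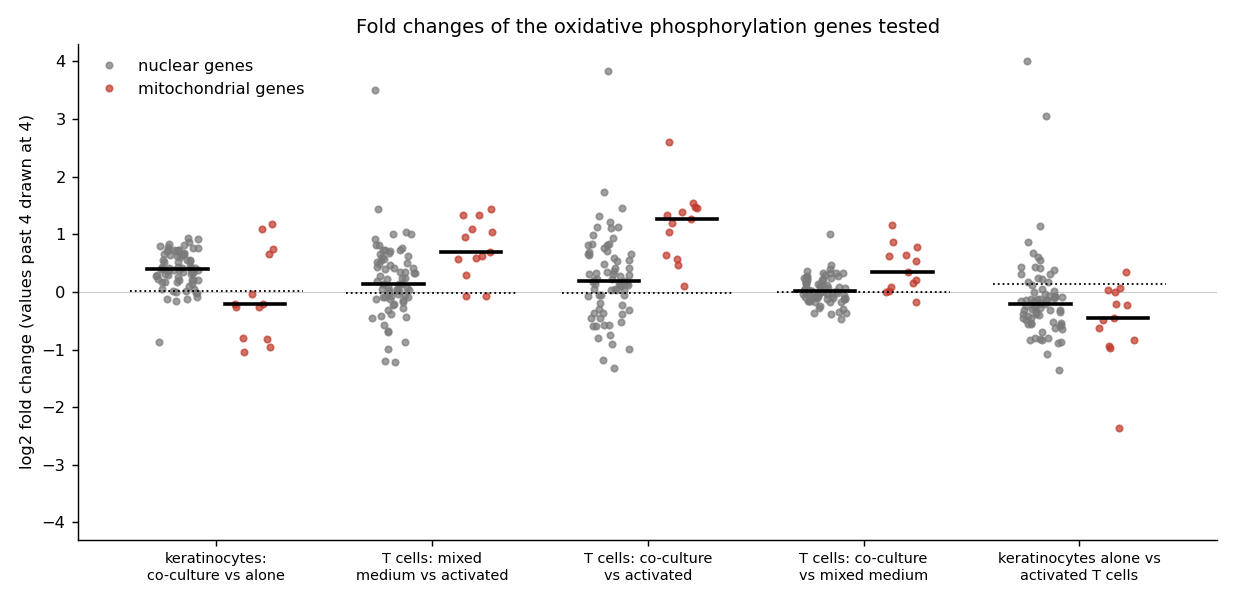
Log2 fold changes of the nuclear (grey) and mitochondrial (red) genes tested in 5 comparisons, each point 1 gene, with solid lines at the medians of the members and dotted lines at the median of all genes tested; values past 4 are drawn at 4. The mitochondrial median was 1.26 in T cells after co-culture against activated T cells and -0.22 in co-cultured keratinocytes against keratinocytes alone.

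Between the cell types, keratinocytes alone and activated T cells were compared in the fit of all 10 libraries. Of all 13394 genes tested 22.5% were called higher in keratinocytes and 13% lower, but 1 of the 74 nuclear genes was higher and 0 lower, and 0 of the 13 mitochondrial genes were called. At an unadjusted p under 0.05, 5 nuclear and 2 mitochondrial genes were lower and 1 nuclear gene higher in keratinocytes, against 28.1% higher and 18.2% lower of all genes tested. DESeq2 called 3 and 2 of these lower, with 43.1% of all genes called in either direction. The medians were -0.22 and -0.45, against 0.14 over all genes. With the gene length trend removed, chosen after the data had been seen, they were -0.067 and -0.23, against -0.13 over all genes. Of the 74 nuclear genes 34 then had a positive fold change, against 20 in the main fit. In RPKM, 43 of the 74 nuclear genes were lower in both keratinocyte libraries than in both of activated T cells, against 35.1% of all genes tested, and 9 higher, against 38.7%. Library size in place of TMM scaling moved the median of all genes by over 0.1 on the log2 scale, to -0.02, and that of the nuclear genes to -0.38. There 7 of the 74 nuclear genes were called lower, against 2143 of all 13394 genes tested.

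The gene that was called is Ndufa4l2 (chromosome 10, 127514967 to 127517154), known as a target of hypoxia-inducible factor and as a relative of Ndufa4, a subunit of complex IV. It had 0 reads in all 6 T-cell libraries, and 55 and 660 reads in keratinocytes alone 1 and 2 and 59 and 291 in co-cultured keratinocytes 1 and 2. These were 3.1, 41.5, 4.16 and 18.9 RPKM, a wide difference within both groups, the second library being higher in each. Against a floor of 3 reads in each library of activated T cells, the lowest of the keratinocytes alone was at least 13.9-fold higher and their mean at least 108-fold, a value set by keratinocytes alone 2. The gene passed the filter on low counts only through the keratinocytes, so that its call is no support for the difference and no p is given. It was not tested with at least 10 reads required in every library, and the call was lost without either library of activated T cells. Ndufa4 had 284 and 353 RPKM in keratinocytes alone and 259 and 281 in activated T cells (0.39 ± 0.40 (SE), adjusted p = 0.467). Cox7a1, a form of muscle and brown fat, was near the detection limit in both, with at most 2.38 RPKM.

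The effects of co-culture on keratinocytes and on T cells were set against each other as an interaction, with T cells in mixed medium as the control of the T cells. None of the 13 mitochondrial and 74 nuclear genes was called by edgeR, among 0.0523% of all genes called higher and 0.538% lower. At an unadjusted p under 0.05 the co-culture effect was lower in keratinocytes for 3 of the 13, namely mt-Nd4l, mt-Nd4 and mt-Nd5, and for 0 nuclear genes, against 2.28% higher and 4.57% lower of all genes tested. DESeq2 called mt-Nd4l, with 2.31% of all genes called in either direction. The difference was positive for 4 of the 13 and 61 of the 74, and for 49.4% of all genes tested. The median difference was -0.83 for the mitochondrial and 0.35 for the nuclear genes. The nuclear value rested on single libraries, being -0.0017 with 37 of 74 positive without co-cultured keratinocytes 2 and -0.029 with 34 of 74 without mixed medium b, and with each library left out it ran up to 0.64. The mitochondrial median then ran from -1.18, without co-cultured T cells a, to -0.28, without co-cultured T cells b. For mt-Nd4l it was -1.87 ± 0.45 (SE), adjusted p = 0.169. Among the nuclear genes with wide positive values at 5 or more RPKM were Ndufb4 (1.12 ± 0.57 (SE)) and Atp5j (0.96 ± 0.48 (SE)), and among those with negative values Ndufv3 (-0.28 ± 0.37 (SE)) and Atp5d (-0.30 ± 0.41 (SE)). For Ndufa4l2, at 0 reads in the T cells, no such difference is given.

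Genes that serve the complexes but carry other names were looked at as lists. Of 45 assembly factors, 2 rose and 1 fell in T cells after co-culture against activated T cells, with a median log2 fold change of -0.13, where 4.59% of all genes rose and 5.72% fell. Ndufaf4, which helps to build complex I, was at 21.7 and 13.1 RPKM in activated T cells, 2.83 and 2.98 in mixed medium and 1.14 and 1.97 after co-culture. It fell by 3.25 ± 0.49 (SE) on the log2 scale (adjusted p = 0.00912), a call kept with each library left out. Surf1, needed for complex IV, and Bcs1l, which inserts the Rieske protein into complex III, rose with log2 fold changes of 1.27 ± 0.32 (SE), adjusted p = 0.0424 and 1.79 ± 0.39 (SE), adjusted p = 0.0272. In mixed medium 0 rose and 2 fell, Ndufaf4 and Cox11, at 2.32% and 4.22% of all genes.

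Among 8 electron carriers and subunits outside the naming rule, 1 rose and 2 fell after co-culture (4.59% and 5.72% of all genes), and 1 fell in mixed medium (4.22%). Cytochrome c (Cycs), which carries electrons from complex III to IV, was at 33 and 32.3 RPKM in activated T cells, 7.98 and 10.8 in mixed medium and 8.54 and 8.64 after co-culture. It fell in both comparisons, by 1.73 ± 0.35 and 1.64 ± 0.34 (SE) on the log2 scale after co-culture and in mixed medium (adjusted p = 0.0209 and 0.0342). Its level in keratinocytes alone was 7.69 and 9.52 RPKM. Coq7, of ubiquinone synthesis, fell after co-culture (-2.12 ± 0.52 (SE), adjusted p = 0.0407), and Etfdh, which feeds electrons from fatty acid oxidation to ubiquinone, rose (1.61 ± 0.42 (SE), adjusted p = 0.0471). The 4 genes of complex II gave no call in T cells, with medians of -0.048 after co-culture and 0.043 in mixed medium.

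Genes for the upkeep and transcription of mitochondrial DNA had negative medians in T cells. Of 19 tested, 0 rose and 1 fell both after co-culture and in mixed medium, with medians of -0.55 and -0.58; of all genes 5.72% and 4.22% fell. The gene that fell was Lrpprc, whose protein binds and stabilises mitochondrial mRNAs, at 42.3 and 23.9 RPKM in activated T cells, 9.11 and 8.66 in mixed medium and 8.32 and 5.08 after co-culture (-2.12 ± 0.38 (SE), adjusted p = 0.0149 and -1.74 ± 0.37 (SE), adjusted p = 0.0348 in mixed medium). In keratinocytes alone, 6 of 19 were lower than in activated T cells and 0 higher, where 13% of all genes were lower and 22.5% higher, among them Tfam, which packs mitochondrial DNA and starts its transcription, with 3.95 and 5.38 RPKM against 22.1 and 26.9 (-2.25 ± 0.41 (SE), adjusted p = 0.00381). Of 9 nuclear regulators of respiratory genes tested, 0 rose and 2 fell in both T-cell comparisons, at the shares of all genes just given, namely Myc and the coactivator Pprc1. Myc was at 145 and 69.1 RPKM in activated T cells, 22.8 and 11.5 in mixed medium and 17.9 and 7.91 after co-culture (-2.87 ± 0.52 (SE), adjusted p = 0.0156 and -2.50 ± 0.51 (SE), adjusted p = 0.0313 in mixed medium). Between keratinocytes alone and activated T cells, 2 of 4 genes of complex II, 7 of 45 assembly factors, 2 of 8 carriers and 1 of 9 regulators were lower in keratinocytes, where 13% of all genes were lower, and 1 carrier, Etfdh, was higher. In keratinocytes after co-culture 0 genes of these lists were called, where 0% of all genes were called. The T-cell calls other than that of Ndufaf4 after co-culture were each lost without activated T cells 1 and, except for Myc after co-culture, also without at least 1 other library.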

How the data were processed

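Exon reads of 10 poly(A)-selected RNA libraries were used. The authors sequenced single-end reads on a HiSeq2500, mapped them to GRCm38 with the CLC Genomics Workbench at default settings, and deposited for each gene counts of total and of unique exon reads without normalization, and RPKM values, that is, reads scaled to exon length and mapped reads. The annotation release and strand setting are not given in the sources used here. Groups were taken from the labels. The deposited counts were tested with edgeR 4.0.16 under R 4.3.3 (glmQLFit and glmQLFTest after filterByExpr and TMM scaling) over all genes, with Benjamini-Hochberg adjustment and a threshold of 0.05. One fit held the 4 keratinocyte libraries and another the 6 of T cells, while the comparison of cell types and the interaction used all 10. RPKM served for levels.

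The members and gene lists were chosen with earlier results of these data known. Named were all 13 mitochondrial genes, up to 5 called rises and falls per comparison averaging at least 5 RPKM in a group (where nothing was called, the 3 largest of each, not all of which are reported here), the 2 highest nuclear members of each complex, and paralog sets. Other settings tried were DESeq2 1.42.0, scaling by library size, scaling without the mitochondrial genes, no filter, at least 10 reads in every library, unique reads, other sets of libraries, the replicate number as a block, each library left out, and limma 3.58.1 on log2(RPKM + pseudocount) with a pseudocount of 1 or 0.1. Removal of the gene length trend, by lowess curves as offsets, was added after the data had been seen. Coordinates are those of the deposited tables. Intervals (Wilson, 95%) and floors (3 reads) cover counting error only. Scripts were tested on simulated data. Python 3.11.15, pandas 2.3.3, scipy 1.17.1 and matplotlib 3.10.9 were used for tables and plots.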

Additional observations from a re-analysis of the deposited data

How the results depend on the processing

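The counts of members called in T cells after co-culture against activated T cells moved from 5 to 12 with DESeq2, 16 without a filter, 9 with limma on log2(RPKM + 1), 2 with only the 4 libraries compared and 14 with the gene length trend removed (chosen after seeing the data), and to 0 to 6 with each library left out. In mixed medium against activated cells 0 became 7 with DESeq2, 7 without a filter, 1 with limma at either pseudocount, 5 without the length trend, and 0 to 2 with each library left out. Between keratinocytes alone and activated T cells, 1 became 6 with DESeq2, 9 with library size, 3 without a filter, 0 at 10 reads in every library, 4 on unique reads, 12 in the 3 limma fits, 4 with only the 4 libraries, 7 without the length trend, and 0 to 1 with each library left out. The interaction gave 1 with DESeq2, which called 2.31% of all genes there, against 0.59% in the main fit. The share of all genes called moved too, after co-culture from 10.3% to 20% (DESeq2), 15.9% (no filter), 14.6% (limma), 8.78% (4 libraries) and 14.7% (length trend), in mixed medium from 6.54% to 16.4%, 12.7%, 9.51% and 10.6% for DESeq2, no filter, limma and length trend, and between the cell types from 35.5% to 43.1% with DESeq2 and 43.2% with limma. The counts in keratinocytes and in co-culture against mixed medium stayed at 0 in every setting, while DESeq2 called 1.49% and 0.733% of all genes there. With 1 library left out, its partner was assumed to vary like the other groups. The causes were not tested beyond what the settings themselves change.

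Signs turned for mt-Nd3 after co-culture (-0.078 with library size, -0.53 without the length trend) and, without the length trend, for mt-Nd3 (-0.32) and mt-Nd4l (-0.051) in mixed medium. With each library left out, log2 fold changes ran from -0.45 to 0.48 for mt-Nd1, -0.41 to 0.45 for mt-Nd2 and -0.80 to 1.54 for mt-Nd3 in mixed medium, and from -0.28 to 1.13, -0.0059 to 0.97 and -0.53 to 1.35 after co-culture. They ran from -0.088 to 0.77 for Atp5g2 and -1.45 to 0.095 for Ndufa10 in co-culture against mixed medium, from -0.68 to 0.26 for Ndufa4 and -2.45 to 2.05 for Ndufa4l2 in keratinocytes, and from -2.49 to 2.05 for Ndufa4l2 in the interaction.

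The keratinocyte groups share replicate numbers, as do keratinocytes alone and activated T cells, but these only number the libraries. Deviations from the group means correlated with r = 0.56 and 0.24 over genes, which are not independent. With the replicate number as a block, 0 members were called in keratinocytes, and 8 between the cell types. On unique reads the shares on mitochondrial genes moved by less than 1 SD. With 2 libraries a group, leaving out 1 says nothing on the stability of a mean, and no such value is given. Small differences are not detectable at this size, and the edgeR fit of keratinocytes called no gene at all.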

Other observations

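Enzymes of the TCA cycle, which supplies electrons to complexes I and II, were called in both directions in T cells. Of 16 tested, 1 rose and 2 fell after co-culture against activated T cells (4.59% and 5.72% of all genes), and 0 rose and 1 fell in mixed medium (2.32% and 4.22%), with medians of -0.30 and -0.47 on the log2 scale. Idh3a and Idh3b encode subunits of the same isocitrate dehydrogenase. Idh3a was at 72.9 and 54.4 RPKM in activated T cells and 23.6 and 21 after co-culture, a fall (-1.31 ± 0.29 (SE), adjusted p = 0.0296), while Idh3b was at 62.5 and 48.8 and 128 and 93.5, a rise (1.18 ± 0.29 (SE), adjusted p = 0.0414). Dlat, of the pyruvate dehydrogenase complex, fell in both comparisons (-1.27 ± 0.32 (SE), adjusted p = 0.0449, and in mixed medium -1.40 ± 0.32 (SE), adjusted p = 0.0449). Both library groups keep apart for all 3 genes, and each call was lost without activated T cells 1, among others.

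Of 10 mitochondrial translation factors, 0 rose and 1 fell in both T-cell comparisons, where 5.72% and 4.22% of all genes fell, with medians of -0.64 after co-culture and -0.54 in mixed medium. The gene was Gfm1, an elongation factor of mitochondrial ribosomes, at 31.6 and 18.2 RPKM in activated T cells, 7.89 and 7.43 in mixed medium and 9.06 and 7.99 after co-culture (-1.34 ± 0.35 (SE), adjusted p = 0.0481). In keratinocytes alone Gfm1, Tufm and Tsfm were lower than in activated T cells, and 0 of the 10 were higher, where 13% of all genes were lower and 22.5% higher.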
